A study of Rattus norvegicus with 24 samples.

Results

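Thyroid follicular cells concentrate iodide from the blood, and the 6 genes described here encode the symporter that does it and proteins of ion transport that work with it. They are Slc5a5 (the sodium iodide symporter), Atp1b1 (the beta subunit of the sodium pump), Kcnq1 and Kcne2 (the pore and the regulatory subunit of a potassium channel), Slc26a4 (pendrin, an anion exchanger) and Ano1 (a calcium-activated chloride channel). Their probe sets were those annotated on the array with exactly 1 gene symbol, and that symbol one of the 6, which gave 9 of the 31042 probe sets and 6 of the 14217 genes named by a single symbol. A probe set is a group of short probes read together as 1 transcript measurement. The brightest probe set of a gene, by its mean over all arrays, stood for the gene, and the others are given beside it.

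The samples were total RNA from thyroids of Sprague-Dawley rats, all adult males, 1 sample on each of 24 Affymetrix expression arrays. They formed 8 groups of 3, a set of 4 treatments at each of 2 times, called day 1 and day 14 here. Perchlorate rats had a normal diet and, for the last 1 or 14 days, drinking water with 95 mg of potassium perchlorate per liter. Diet rats had an iodine-deficient diet and plain water, combined rats had both the deficient diet and the perchlorate water, and control rats had a normal diet and plain water. Every rat was housed for 2 months plus the 1 or 14 days, and the deficient diet ran through that whole time, so the diet had lasted over 2 months at both times while perchlorate had lasted 1 or 14 days. The labels do not say that the samples came from separate animals, and the p-values then reflect the spread among samples alone, part of which may be technical. Each sample is RNA of whole thyroid tissue, in which fewer cells of a type and less RNA per cell cannot be told apart.

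The symporter sits in the basolateral membrane, on the blood side of the follicular cell, and couples the entry of iodide to the entry of sodium. The sodium pump keeps sodium low inside the cell, and in mice the Kcnq1 and Kcne2 potassium channel is needed for normal iodide uptake. Iodide then leaves across the apical membrane into the follicle lumen, where it is bound to thyroglobulin; pendrin and, in cultured rat thyroid cells, Ano1 have been linked to that exit. Perchlorate is carried in place of iodide by the symporter and so blocks uptake, while a deficient diet limits the iodide offered to it. Thyrotropin from the pituitary, which rises when thyroid hormone falls, is known to raise Slc5a5 transcription.

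Of the 6 genes, Slc5a5 was the only one called against control with equal weight on all arrays, so its promoter is shown. That of Ano1, a bright gene of the 6 that was not called in any comparison, is shown beside it. RefSeq promoters (build GRCr8, 250 bases before the annotated start and 50 after it) were held for 3 of the 6 genes: Slc5a5, Slc26a4 and Ano1. Each is printed 5′ to 3′ on the strand of its gene, and capitals mark the motifs AATAAAT and GGGCGG. The Slc5a5 window is chr16:18580455-18580754 on the plus strand, and the Ano1 window is chr1:209329289-209329588 on the minus strand.
Slc5a5: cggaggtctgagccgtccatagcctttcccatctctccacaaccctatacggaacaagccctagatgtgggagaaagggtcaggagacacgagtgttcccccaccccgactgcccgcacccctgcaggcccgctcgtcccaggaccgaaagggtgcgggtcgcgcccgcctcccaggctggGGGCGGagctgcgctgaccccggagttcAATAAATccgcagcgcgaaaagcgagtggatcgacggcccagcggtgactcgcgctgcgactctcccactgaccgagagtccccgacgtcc
Ano1: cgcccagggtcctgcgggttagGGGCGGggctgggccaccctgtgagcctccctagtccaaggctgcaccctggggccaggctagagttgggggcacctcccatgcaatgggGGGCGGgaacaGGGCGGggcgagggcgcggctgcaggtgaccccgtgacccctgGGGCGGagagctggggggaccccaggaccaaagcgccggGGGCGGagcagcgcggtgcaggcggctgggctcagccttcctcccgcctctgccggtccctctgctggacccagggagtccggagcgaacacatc

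AATAAAT, an AT-rich element of the kind that places the start of transcription, lay 41 to 35 bases before the Slc5a5 start and is held by 6.6% of the 33469 rat promoters of the same length, read on both strands. GGGCGG, the core of the element bound by Sp1, lay 69 to 64 bases before the Slc5a5 start, occurred 5 times in the Ano1 window and is held by 33.1% of promoters. CAAG, the core recognised by the thyroid factor Nkx2-1, occurred once in each of the 3 windows and is held by 91.0% of promoters, and TGACG, part of the cyclic AMP response element, was in none of the 3 and is held by 21.2%. No 2 of these matches overlapped within a window. The Slc26a4 window (chr6:53873167-53873466, minus strand) held neither capitalised motif. These matches describe the letters of the windows only, and the enhancer through which thyrotropin is known to act on the symporter gene lies upstream of the Slc5a5 window.

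Deposited intensities were taken as log2(intensity + 16) and quantile normalised, so a level below is on that log2 scale, and a log2 fold change is a difference between group means on it, which understates changes of dim probe sets. Differences were tested with limma across the 18625 probe sets whose mean lay above the 40th percentile, with Benjamini-Hochberg adjustment over all of them, and called at an adjusted p under 0.05. Slc5a5, Atp1b1, Kcnq1 and Ano1, with 5 probe sets, passed this filter on dim signal, while Slc26a4 and Kcne2, with 4 probe sets, lay under its level of 6.19. Arrays of 1 group correlated at 0.92 to 0.98. The perchlorate array of day 1 with replicate number 18 stood apart, with a median absolute deviation from the 24-array median of 0.66 log2 units, followed by control day 1 replicate 22 at 0.27, against 0.12 to 0.20 for the other arrays. Follicular markers were bright on all arrays: their 7 measured genes summed to between 38086 and 48138 intensity units on every array. Tg, the thyroglobulin gene, ran from 13.48 to 13.98 on its brightest probe set.

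Slc5a5 was higher on every treated array than on every control array. The 18 treated arrays ran from 11.51 to 12.75, against 10.63 to 11.22 for the 6 control arrays. Among the 18625 probe sets, 14 (0.0752%) separated all 18 treated from all 6 control arrays in this way, 7 of them higher and 7 lower in the treated arrays. Of the 4 member genes tested, Slc5a5 was the only one to do so. It was also the only member called by the F test over the 8 groups (adjusted p = 1.23e-05), against 7.8% of all probe sets.

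**Figure D1:**
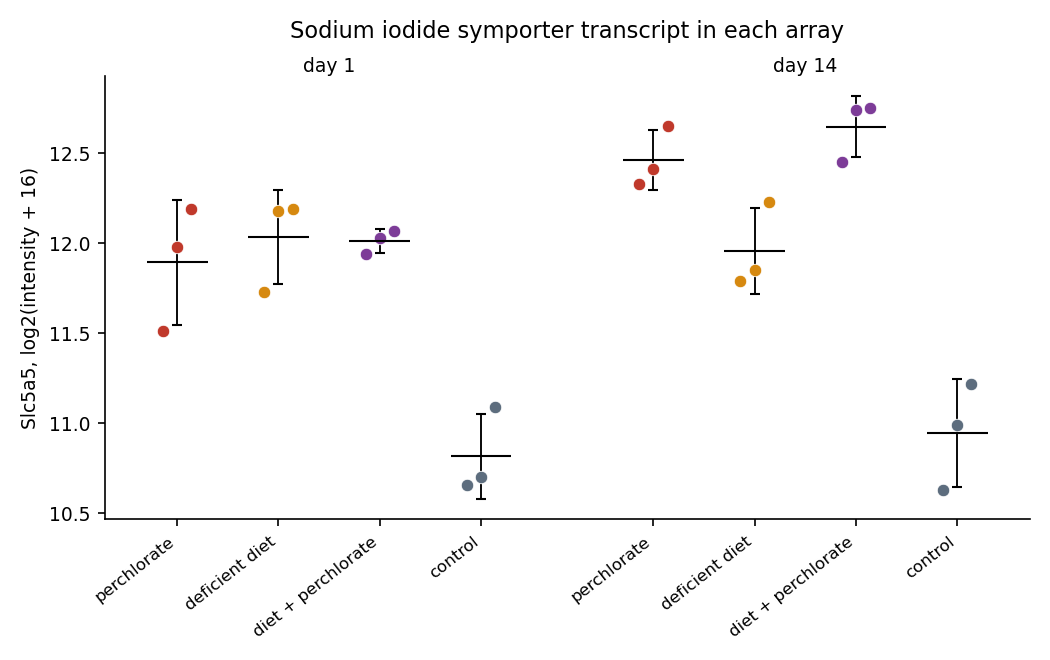
Level of Slc5a5, as log2(intensity + 16) after quantile normalisation, in each of the 24 arrays. Points are single arrays, horizontal bars are means of 3 and error bars are SD. All 18 treated arrays lie at or above 11.51, and the 6 control arrays lie at or below 11.22.

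On day 1 the Slc5a5 levels in perchlorate thyroids were 11.51, 11.98 and 12.19. The diet thyroids stood at 11.73, 12.18 and 12.19. The combined thyroids stood at 11.94, 12.03 and 12.07, the narrowest spread of the 8 groups for this gene (SD 0.07, n = 3). The day 1 controls were at 10.66, 10.70 and 11.09, so each treatment lay clear of control, and the 3 treatments overlapped one another.

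On day 14 the perchlorate thyroids were at 12.33, 12.41 and 12.65, and the diet thyroids at 11.79, 11.85 and 12.23. The combined thyroids were at 12.45, 12.74 and 12.75, against 10.63, 10.99 and 11.22 in day 14 controls. Both groups that drank perchlorate for 14 days lay above the diet group with no overlap, and all 3 treatments lay above control. The share of all probe sets that separate groups of 3 arrays in this way was not counted, here or in other paragraphs. In order of group means, Slc5a5 stood at 12.65 in combined day 14, 12.46 in perchlorate day 14, 12.03 in diet day 1, 12.01 in combined day 1, 11.96 in diet day 14, 11.89 in perchlorate day 1, 10.95 in control day 14 and 10.82 in control day 1. Neighbours in that order differed by less than the within-group SD of 0.24, except across the gap between the treated and the control groups and between perchlorate day 14 and diet day 1.

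After 1 day of perchlorate on a normal diet, Slc5a5 averaged 11.89 ± 0.35, against 10.82 ± 0.24 in day 1 controls (SD, n = 3 each). The log2 fold change was 1.07 (SE 0.19, 95% interval 0.69 to 1.46) and its limma adjusted p was 0.156, so it was not called. No probe set was called by limma in this comparison (0% of 18625), while 1888 had an unadjusted p under 0.05, and Slc5a5 had the smallest p of the 10643 genes tested (1.05e-05 unadjusted). Leaving out perchlorate replicate 15 gave 1.27 (adjusted p = 0.0144) and leaving out replicate 16 gave 1.03 (adjusted p = 0.038), each of them a call. Without the pair of arrays that stood apart the difference was 0.84 (adjusted p = 0.555). Lymphocyte markers, of which 5 were measured, summed to 330, 2244 and 6529 intensity units in these perchlorate thyroids, against 417, 424 and 475 in day 1 controls, and skeletal muscle markers (8 measured) to 6379, 8707 and 12039, against 7266, 18320 and 28571. By limma 0 genes of either list were called there, while 2 of the 3 tested lymphocyte and 0 of the 7 tested muscle markers had an unadjusted p under 0.05, and their part in the Slc5a5 value was not tested.

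The deficient diet raised Slc5a5 at both times. On day 1 it rose to 12.03 ± 0.27 in diet thyroids, against 10.82 ± 0.24 in controls, which is a difference of 1.22 on the log2 scale (SE 0.19, limma adjusted p = 0.0174) where 0.0537% of probe sets were called. Only 8 genes were called there, and 3 of those rose by more. On day 14 it rose to 11.96 ± 0.24, against 10.95 ± 0.30 in controls, by 1.01 (SE 0.19, limma adjusted p = 0.0269), with 0.22% of probe sets called. Averaged over both days the rise was 1.11 (SE 0.13, limma adjusted p = 9.21e-05; 1.03% of probe sets called), or 2.16-fold. The day 1 call was lost when a single array was left out in 4 cases: diet 8 (1.14, adjusted p = 0.102), diet 9 (1.14, 0.111), control 22 (1.14, 0.0717) and control 21 (1.16, 0.102), named by replicate number. The day 14 call was lost in the same way for diet 32 (1.07, adjusted p = 0.0769), diet 33 (0.87, 0.188), control 44 (0.85, 0.145) and control 47 (1.03, 0.0833). The mean over both days kept its call under all 21 alternatives.

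After 14 days of perchlorate Slc5a5 was called. It rose to 12.46 ± 0.17 in perchlorate thyroids of day 14, against 10.95 ± 0.30 in controls, by 1.52 (SE 0.19, 95% interval 1.13 to 1.91, limma adjusted p = 8e-05), or 2.86-fold. In that comparison 3.57% of probe sets were called, and 88 of the 462 genes called rose by more. Over both days the perchlorate difference averaged 1.30 (SE 0.13, limma adjusted p = 1.64e-05; 1.12% of probe sets called). The difference between its effects on day 14 and on day 1 was 0.44 (95% interval -0.11 to 0.99, adjusted p = 0.52), which was not called, in a contrast where 0.553% of probe sets were.

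Slc5a5 also rose with both treatments together, on either day. In combined thyroids Slc5a5 rose to 12.01 ± 0.07 on day 1, against 10.82 ± 0.24 in controls, by 1.19 (SE 0.19, limma adjusted p = 0.00262; 0.601% of probe sets called). On day 14 it rose to 12.65 ± 0.17, against 10.95 ± 0.30 in controls, by 1.70 (SE 0.19, 95% interval 1.31 to 2.09, limma adjusted p = 1.12e-05), or 3.25-fold, in a comparison that called 8.85% of probe sets. Of the 1142 genes called there, 137 rose by more. The mean over both days was 1.45 (SE 0.13, limma adjusted p = 7.6e-07; 10.1% of probe sets called). These calls held under each of the 15 alternatives tried for a single day and the 21 for the mean, with the highest adjusted p, 0.0464, for day 1 when only the groups compared were fitted.

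Treated groups were also compared with one another. On day 1 Slc5a5 averaged 12.01 in combined and 12.03 in diet thyroids, a difference of -0.02 (95% interval -0.41 to 0.37, adjusted p = 0.999; 0.00537% of probe sets called). Combined against perchlorate thyroids gave 0.12 (interval -0.27 to 0.51, adjusted p = 0.719) in a contrast that called 3.66% of probe sets. Perchlorate against diet thyroids gave -0.14 (interval -0.53 to 0.25, adjusted p = 0.682), with 0.0107% called. None of the 3 passed, and the groups overlapped in each.

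On day 14 combined thyroids were 0.69 above diet thyroids (12.65 against 11.96, interval 0.30 to 1.08), but the adjusted p was 0.161, where 0.209% of probe sets were called. That difference was called with limma's array quality weights (0.68, adjusted p = 0.0107) and when only the groups compared were fitted (0.68, adjusted p = 0.0425). Combined against perchlorate thyroids gave 0.19 (interval -0.20 to 0.57, adjusted p = 1) and perchlorate against diet thyroids 0.51 (interval 0.12 to 0.90, adjusted p = 0.999), each in a contrast that called 0.00537% of probe sets. The interval of the difference between perchlorate and diet thyroids lies above 0, but the difference did not pass the adjustment over all probe sets.

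The interaction of diet and perchlorate asks whether the effects add on the log2 scale. For Slc5a5 it was -1.10 on day 1 (interval -1.65 to -0.55, unadjusted p = 0.000453, adjusted p = 0.33) and -0.83 on day 14 (interval -1.38 to -0.27, unadjusted p = 0.00521, adjusted p = 1), so neither was called. The combined level lay below the sum of the single differences on both days, 1.19 against 1.07 and 1.22 on day 1, and 1.70 against 1.52 and 1.01 on day 14. The interaction called 0.0107% of probe sets on day 1 and 0.0161% on day 14. Controls of day 14 and day 1 differed by 0.13 (interval -0.26 to 0.52, adjusted p = 1), in a contrast where limma called 0 probe sets (0%) and 765 had an unadjusted p under 0.05. The change of the diet effect between days was -0.21 (interval -0.76 to 0.34, adjusted p = 1) and that of the combined effect 0.51 (interval -0.04 to 1.06, adjusted p = 0.613), again with 0 probe sets called and with 502 and 1625 at an unadjusted p under 0.05.

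**Figure D2:**
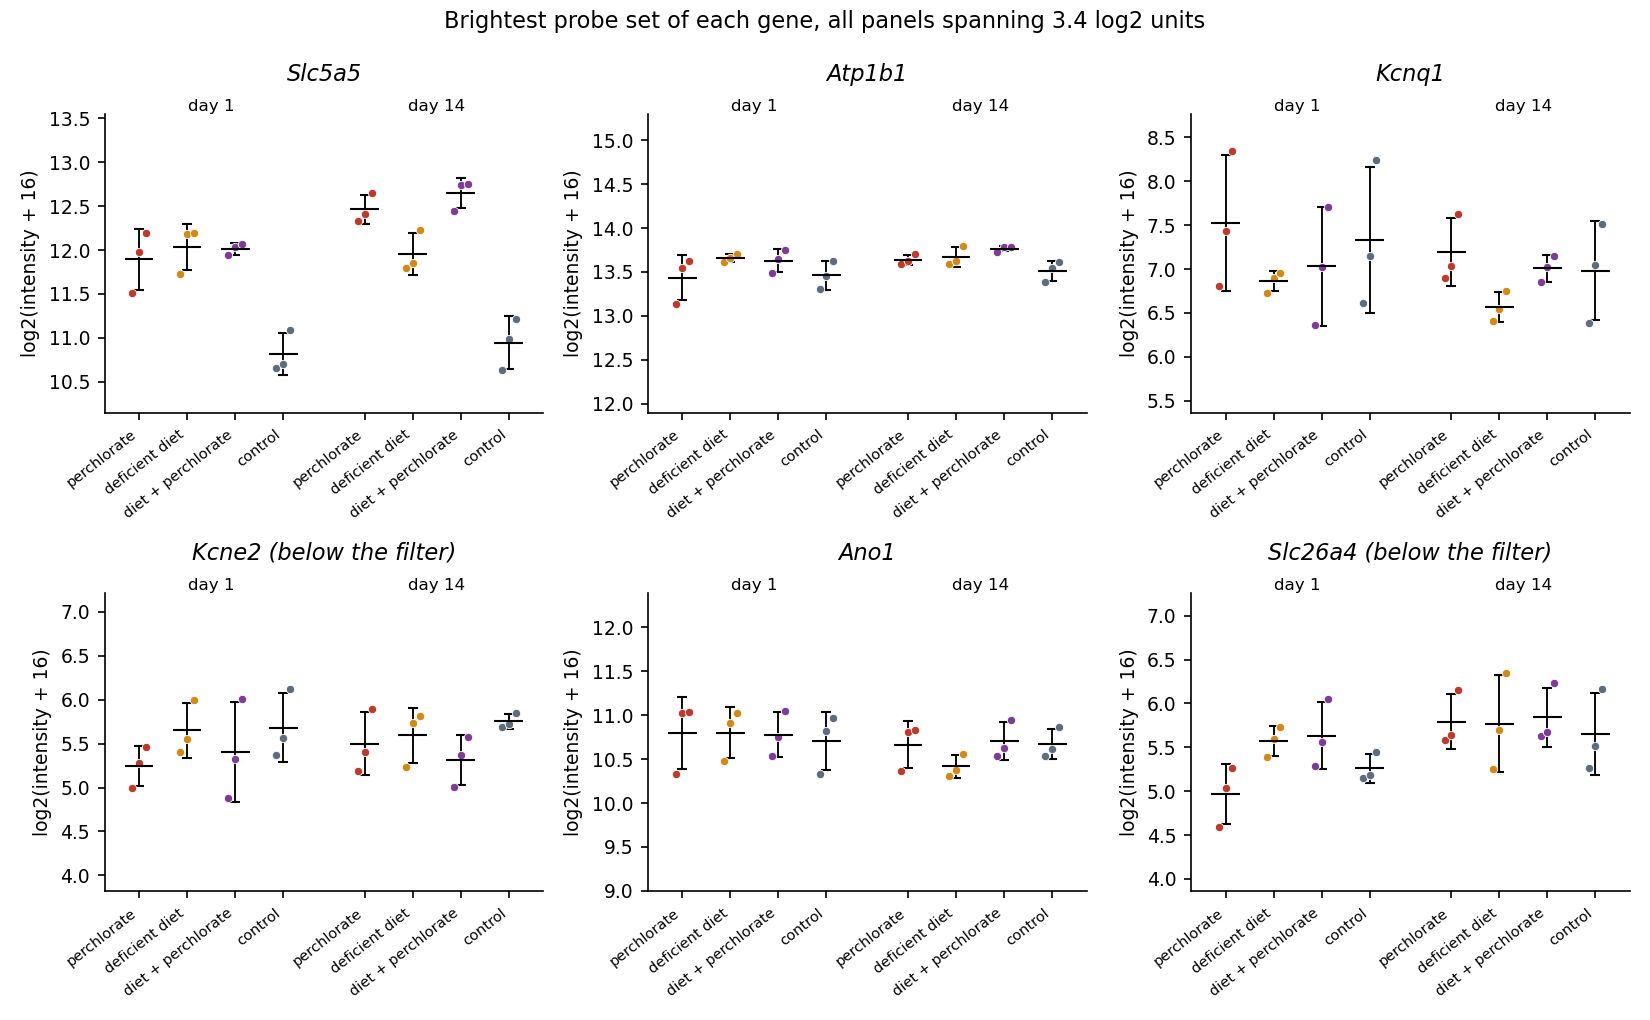
Level of the brightest probe set of each of the 6 genes, as log2(intensity + 16) after quantile normalisation, per array and group, with means (bars) and SD (error bars, n = 3). Every panel spans 3.4 log2 units, so the shift of Slc5a5 can be set against the scatter of the other 5 genes.

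Atp1b1 encodes the beta subunit that the sodium pump needs to fold and reach the membrane. Its 2 probe sets were among the brightest on the array, at percentiles 99.8 and 99.7 of the mean level, and the brighter one ran from 13.14 to 13.80. On day 14 it stood at 13.73, 13.78 and 13.78 in combined thyroids, against 13.39, 13.54 and 13.61 in controls. The log2 fold change was 0.25 (SE 0.11, 95% interval 0.02 to 0.48) with a limma adjusted p of 0.189, so it was not called. The other 5 comparisons with control gave -0.03 to 0.19 on this probe set, none called.

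The second Atp1b1 probe set was low on the pair of arrays that stood apart, 12.64 in perchlorate day 1 replicate 18 and 12.29 in control day 1 replicate 22, and between 13.26 and 13.89 on the other 22. Its day 1 diet levels were 13.54, 13.59 and 13.71, against 12.29, 13.28 and 13.31 in controls, a difference of 0.65 (interval 0.23 to 1.08, adjusted p = 0.518) that was not called. With limma's array quality weights, which keep all 24 arrays, the combined difference on the brighter probe set was called on day 14 (0.23, adjusted p = 0.0246) and over both days (0.21, adjusted p = 0.00784). Those weights called 4371 of 18625 probe sets in combined thyroids of day 14 and 4385 over both days. Equal weights called 1649 and 1876. Without that pair of arrays the combined difference of day 14 was called on both probe sets, 0.25 (adjusted p = 0.0308) on the brighter and 0.39 (adjusted p = 0.00873) on the other. Over both days the second probe set without the pair was called for diet (0.30, adjusted p = 0.0377) and for combined treatment (0.26, adjusted p = 0.016). Without the pair 3295 probe sets were called in combined thyroids of day 14. Over both days 3339 were called for combined treatment and 406 for diet in that setting. Pairing that setting with the second probe set was chosen after the data were seen. Averaged over both days the combined difference was 0.21 (interval 0.05 to 0.37, adjusted p = 0.0958) with equal weight on all arrays and 0.17 (adjusted p = 0.0487) without the pair, on the brighter probe set.

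Kcnq1 forms the pore of a potassium channel that, with Kcne2, stays open at rest. It was measured by 1 probe set of middling signal (percentile 51.9, deposited intensities 62.1 to 329). The day 1 levels were 6.81, 7.43 and 8.35 in perchlorate, 6.73, 6.90 and 6.95 in diet, 6.36, 7.02 and 7.71 in combined and 6.61, 7.15 and 8.24 in control thyroids. On day 14 they were 6.90, 7.04 and 7.63 in perchlorate, 6.41, 6.54 and 6.75 in diet, 6.85, 7.02 and 7.15 in combined and 6.39, 7.05 and 7.51 in control thyroids. Arrays of 1 group spread by 0.53 (SD), more than the group means did (SD 0.29), and each treated group overlapped its control.

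The F test over the 8 groups gave an adjusted p of 0.618 for Kcnq1. Over both days the differences from control were 0.20 for perchlorate (interval -0.38 to 0.79, adjusted p = 0.811), -0.44 for diet (interval -1.03 to 0.14, adjusted p = 0.584) and -0.14 for combined treatment (interval -0.72 to 0.45, adjusted p = 0.824). The intervals span over 1 log2 unit each, so a moderate change of Kcnq1 was not detectable with 3 arrays a group. Kcne2, the regulatory subunit, lay under the filter on all 3 of its probe sets, the brightest at percentile 28.7 and the dimmest at 6.01. The brightest had group means of 5.25 to 5.75 and arrays from 4.88 to 6.12, with treated arrays from 4.88 to 6.01 and control arrays from 5.37 to 6.12. Fitted without the filter, its combined difference over both days was -0.36 (interval -0.77 to 0.05), and its F test over the groups had an adjusted p of 0.791. The brightest and the dimmest carry Affymetrix suffixes (x and s) for probes that can bind other transcripts too.

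Pendrin and Ano1 stand at the apical side of iodide transport. Slc26a4 was dim (percentile 29.6, deposited intensities 7.59 to 70.1) and under the filter. Its treated arrays ran from 4.59 to 6.35, against 5.15 to 6.17 for control arrays. The group means were 4.97 in perchlorate, 5.57 in diet, 5.63 in combined and 5.26 in control thyroids of day 1. On day 14 they were 5.79 in perchlorate, 5.77 in diet, 5.84 in combined and 5.66 in control thyroids. Without the filter the F test gave an adjusted p of 0.384, and the combined difference over both days was 0.28 (interval -0.15 to 0.71). At this dim signal the values do not settle whether Slc26a4 changed.

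Ano1 was bright (percentile 91.7, deposited intensities 1063 to 2458) and varied little. Its treated arrays had a lowest level of 10.31 and a highest of 11.05, against 10.33 and 10.97 for control arrays, so the groups overlapped over nearly their whole range. Against control its log2 fold changes were 0.09 for perchlorate, 0.10 for diet and 0.07 for combined treatment on day 1, and -0.01, -0.26 and 0.03 for the same treatments on day 14. The F test gave an adjusted p of 0.8. Over both days the 95% intervals were -0.27 to 0.35 for perchlorate, -0.39 to 0.23 for diet and -0.26 to 0.36 for combined treatment, all of which lie below the interval of the Slc5a5 rise for the same treatment.

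**Figure D3:**
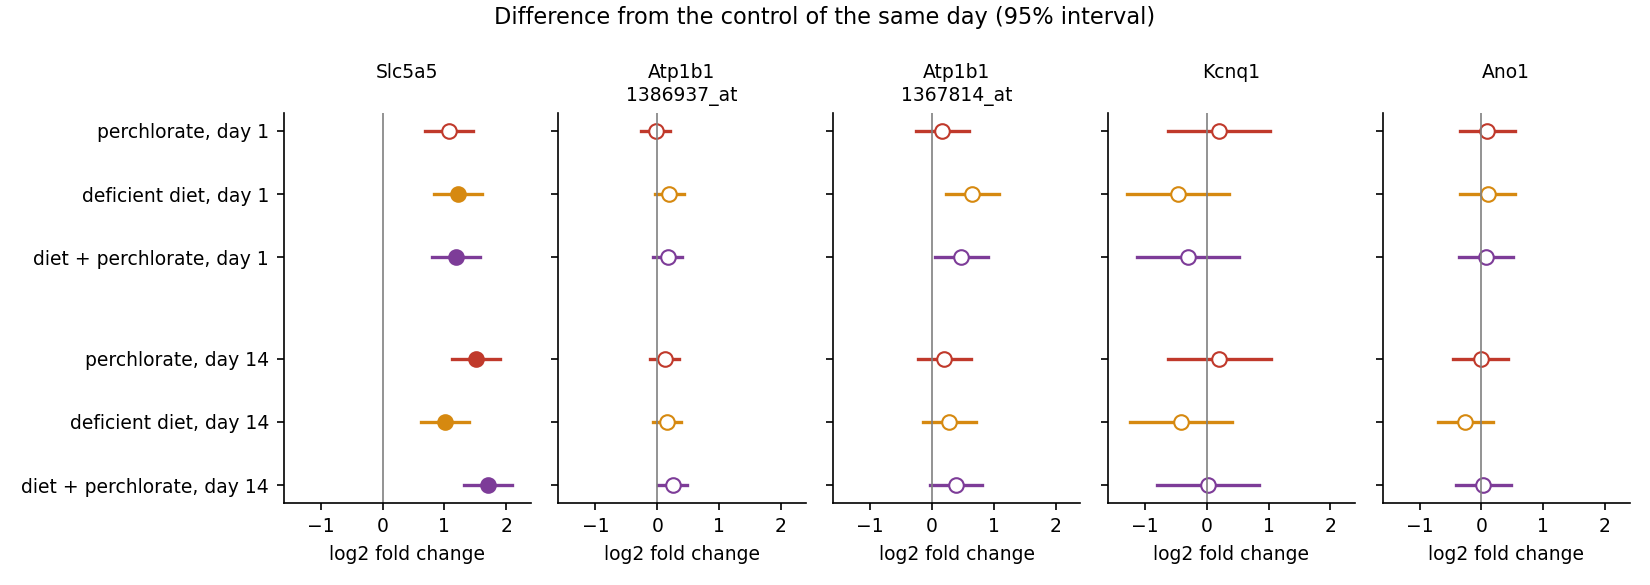
Log2 fold change from the control of the same day (points) with 95% intervals (lines) for the probe sets of the 4 tested genes, by treatment and day, with the brighter Atp1b1 probe set in the left of its panels. Filled points passed an adjusted p under 0.05, which in these panels are 5 of the 6 Slc5a5 values and none of the others.

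Genes of related transport were read from lists of their families. Slc26a10, a member of the SLC26 anion transporter family to which pendrin belongs, followed Slc5a5 most closely among the 10643 genes tested, over the 24 arrays. Its root mean square difference was 0.24 log2 units after each gene was centred on its mean. The median gene differed by 0.71, and Slc5a5 itself varied by 0.64 around its mean. The next 4 by this measure were Sulf2 (0.32), Sema3g (0.33), Ecscr (0.33) and Ada (0.35).

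Slc26a10 stood at 8.74, 8.86 and 9.33 in perchlorate, 8.97, 9.15 and 9.36 in diet and 8.88, 8.94 and 9.08 in combined thyroids of day 1, against 7.80, 7.88 and 8.11 in controls. On day 14 it stood at 8.94, 9.37 and 9.51 in perchlorate, 8.84, 9.03 and 9.43 in diet and 9.50, 9.62 and 9.64 in combined thyroids, against 8.16, 8.59 and 8.69 in controls. The treated arrays lay above the controls of their own day, which is not independent of the likeness to Slc5a5 on these same arrays. Slc26a10 rose on day 1 by 1.23 in diet (limma adjusted p = 0.018) and by 1.04 in combined thyroids (0.0105). It rose on day 14 by 1.11 in combined (0.00106) and by 0.79 in perchlorate thyroids (0.0241). The shares of all probe sets called were 0.0537% and 0.601% in those comparisons of day 1, and 8.85% and 3.57% in those of day 14. The values for perchlorate on day 1 (1.05, adjusted p = 0.156) and diet on day 14 (0.62, adjusted p = 0.218) did not pass. The Slc26a10 rises over both days, 0.92 for perchlorate, 0.93 for diet and 1.07 for combined treatment, were called under all 21 alternatives. Of its single-day calls, that for combined treatment on day 14 held under all 15 alternatives. The diet call of day 1 was lost when diet replicate 8 or 9, or else control 21 or 22, was left out (1.13 to 1.24), and the combined call of day 1 without combined replicate 3 or control replicate 21 or 22 (0.97 to 1.01). Both were also lost when only the groups compared were fitted (1.24, adjusted p = 0.266 for diet, and 1.06, adjusted p = 0.0934 for combined treatment). The perchlorate call of day 14 was lost without perchlorate replicate 39 or 40 or control replicate 43 or 44 (0.63 to 0.85). The other 2 tested genes of the SLC26 list (3 tested of 10) were not called against control, and neither of the 2 tested genes of the SLC5 list (14 listed) was. Of those SLC5 genes 1 had an unadjusted p under 0.05 in combined thyroids of day 14.

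Sodium pump genes other than Atp1b1 were called on day 14 in combined thyroids and, for 1 gene, in perchlorate thyroids. Of 7 tested from a list of 14, 3 rose and 0 fell in combined thyroids of day 14, where 8.85% of all probe sets were called, with a median log2 fold change of 0.58, against -0.06 for all probe sets tested. They were Atp1b2, another beta subunit (1.11, adjusted p = 0.013), and Fxyd2 and Fxyd5, small regulators of the pump (1.05, adjusted p = 0.013, and 1.33, adjusted p = 0.00394). In perchlorate thyroids of day 14 Fxyd2 alone was called (0.98, adjusted p = 0.0397), and that call was lost without any of perchlorate replicates 39, 40 and 42 or control replicates 43 and 44 (0.72 to 1.04), with no filter (adjusted p = 0.0702) and with only the groups compared (adjusted p = 0.0548). Diet thyroids of day 14 gave similar values without a call, where 0.22% of probe sets were called, against 3.57% with perchlorate. They were 0.98 for Fxyd2 (adjusted p = 0.125), 0.85 for Fxyd5 (0.237) and 0.53 for Atp1b2 (0.587). Perchlorate thyroids gave 0.78 for Fxyd5 and 0.69 for Atp1b2. Fxyd2 passed the filter level of 6.19 only through the treated groups of day 14 (means 6.71 to 6.79). Its mean over the other 5 groups was 6.16, so its calls and its place in the count above are a description only. The Fxyd5 call held under all 15 alternatives. The combined calls of day 14 were lost for Atp1b2 without combined replicate 27 (1.06, adjusted p = 0.0624), and for Fxyd2 without the same array (1.04, 0.0537) or control replicate 43 (0.80, 0.0948). Fxyd3, of the same family, fell over both days by 0.91 in diet thyroids (adjusted p = 0.0345) and by 0.86 in combined thyroids (adjusted p = 0.00956). The combined call of Fxyd3 held under all 21 alternatives, and the diet call was lost under 11 of 21, among them when any of diet 9, 32, 33 and 34 and control 21, 22, 43 and 44 was left out (-0.95 to -0.77). The second, dim Atp1b2 probe set lay under the filter and gave 0.00 in combined thyroids of day 14.

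Aqp1, a water channel found in blood vessel endothelium among other cells, rose in all 3 treatments of day 14. It stood at 10.65, 11.17 and 11.21 in perchlorate, 10.42, 10.96 and 11.09 in diet and 11.16, 11.22 and 11.56 in combined thyroids, against 8.84, 8.85 and 9.37 in controls. It rose by 1.99 with perchlorate (adjusted p = 0.0024), 1.80 with diet (adjusted p = 0.0349) and 2.30 with both (adjusted p = 0.000316), where 3.57%, 0.22% and 8.85% of all probe sets were called. Its second, dimmer probe set gave 0.67, 0.55 and 0.68 (adjusted p = 0.122, 0.421 and 0.0683), none called. The diet call was lost when any 1 of the 6 arrays compared was left out (1.67 to 2.00) and with no filter (adjusted p = 0.0571). On day 1 the brighter probe set was also above control, without a call. It gave 0.91 with perchlorate (adjusted p = 0.453), 1.59 with diet (0.149) and 1.52 with both (0.0518). The dimmer one gave 0.18, 0.25 and 0.13.

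Subunits of the epithelial sodium channel gave calls of lower level in groups that drank perchlorate for 14 days, and none was called in diet thyroids. Scnn1g and Scnn1b were lower in diet thyroids of day 14 too, by -0.74 (adjusted p = 0.401) and -0.45 (0.732). Scnn1a was not (0.13, adjusted p = 0.98). That comparison called 0.22% of all probe sets, against 3.57% with perchlorate. Scnn1g was at 5.26, 5.45 and 6.18 in perchlorate and 5.51, 5.52 and 6.02 in combined thyroids of day 14, against 6.86, 6.88 and 6.92 in controls. Its log2 fold changes were -1.26 (adjusted p = 0.0201) and -1.20 (adjusted p = 0.0136), while a dimmer probe set under the filter gave -0.35 and -0.46. Its mean over all arrays, 6.22, cleared the filter only through the controls, since the 18 treated arrays averaged 6.02. Its calls and its place in the list count below are therefore a description only. Both calls held with no filter (adjusted p = 0.0365 and 0.0242). Scnn1b fell by 1.19 in combined thyroids (adjusted p = 0.013), where Scnn1a was not called (-0.73, adjusted p = 0.133). Scnn1a fell by 1.07 in perchlorate thyroids (adjusted p = 0.0419), where Scnn1b was not called (-0.90, adjusted p = 0.107). The Scnn1a call was lost in 8 of 15 alternatives, among them without perchlorate replicate 39, 40 or 42 or control replicate 43 or 44 (-1.13 to -0.88). The Scnn1g call was lost for perchlorate without replicate 39 or 40 (-1.07 and -1.17) and for combined treatment without replicate 27 or 29 (-1.11 and -1.12), and the Scnn1b call without combined replicate 27 or control replicate 43 (-1.14 and -1.04). The bicarbonate cotransporter Slc4a4 fell by 0.97 in combined thyroids of day 14 (adjusted p = 0.00932), a call lost without combined replicate 27 or control replicate 44 (-0.86 and -0.87). Its second probe set gave -1.05 (adjusted p = 0.125). The sodium, potassium and chloride cotransporter Slc12a2 rose by 0.57 over both days in combined thyroids (adjusted p = 0.0237), lost without combined replicate 3 or 30 or control replicate 22 or 44 (0.46 to 0.57). In all, 1 of the 20 tested genes of this list rose and 3 fell in combined thyroids of day 14, where 8.85% of all probe sets were called, with a median of -0.06, equal to that of all probe sets at 2 decimals.

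Of 12 potassium channels tested outside the KCNQ and KCNE families, 1 rose and 1 fell in combined thyroids of day 14, where 8.85% of all probe sets were called: Kcnj8, a subunit of ATP-sensitive channels in vessel walls (1.08, adjusted p = 0.0364), and Kcnj11, a subunit of such channels in secretory cells (-1.35, adjusted p = 0.018). Over both days Kcnj16 rose by 0.79 (adjusted p = 0.0173) and Kcnk3 fell by 0.67 (adjusted p = 0.033) in combined thyroids. A second probe set of Kcnj16 gave 0.09 (adjusted p = 0.763), and a second one of Kcnj11 gave -0.75 on day 14 (adjusted p = 0.166) and -0.70 over both days (adjusted p = 0.0497). The Kcnj8 call was lost without any 1 of the 6 arrays compared (0.98 to 1.18), with the values as deposited (adjusted p = 0.059) and with no filter (adjusted p = 0.0564). The call was lost for Kcnj11 on day 14 without combined replicate 27 or 30 or control replicate 44 (-1.33 to -1.12), and for Kcnk3 under 9 of 21 alternatives. Of 13 chloride channels and anoctamins tested, 2 rose in the same comparison, Clic4 (0.69, adjusted p = 0.0103) and Ano6 (0.65, adjusted p = 0.0261), and Clcn4 rose over both days (0.38, adjusted p = 0.0427). The Ano6 call was lost without any 1 of the 6 arrays compared (0.62 to 0.69) and with the values as deposited (adjusted p = 0.0979), the Clic4 call without control replicate 43 (0.53, adjusted p = 0.0775), and the Clcn4 call under 12 of 21 alternatives. Clic4 had 2 other tested probe sets, with 0.28 and 0.07 (adjusted p = 0.476 and 0.912). Neither of the 2 tested genes of the KCNQ and KCNE list was called by limma in any comparison with control, and 1 had an unadjusted p under 0.05 in perchlorate and in combined thyroids of day 14.

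**Figure D4:**
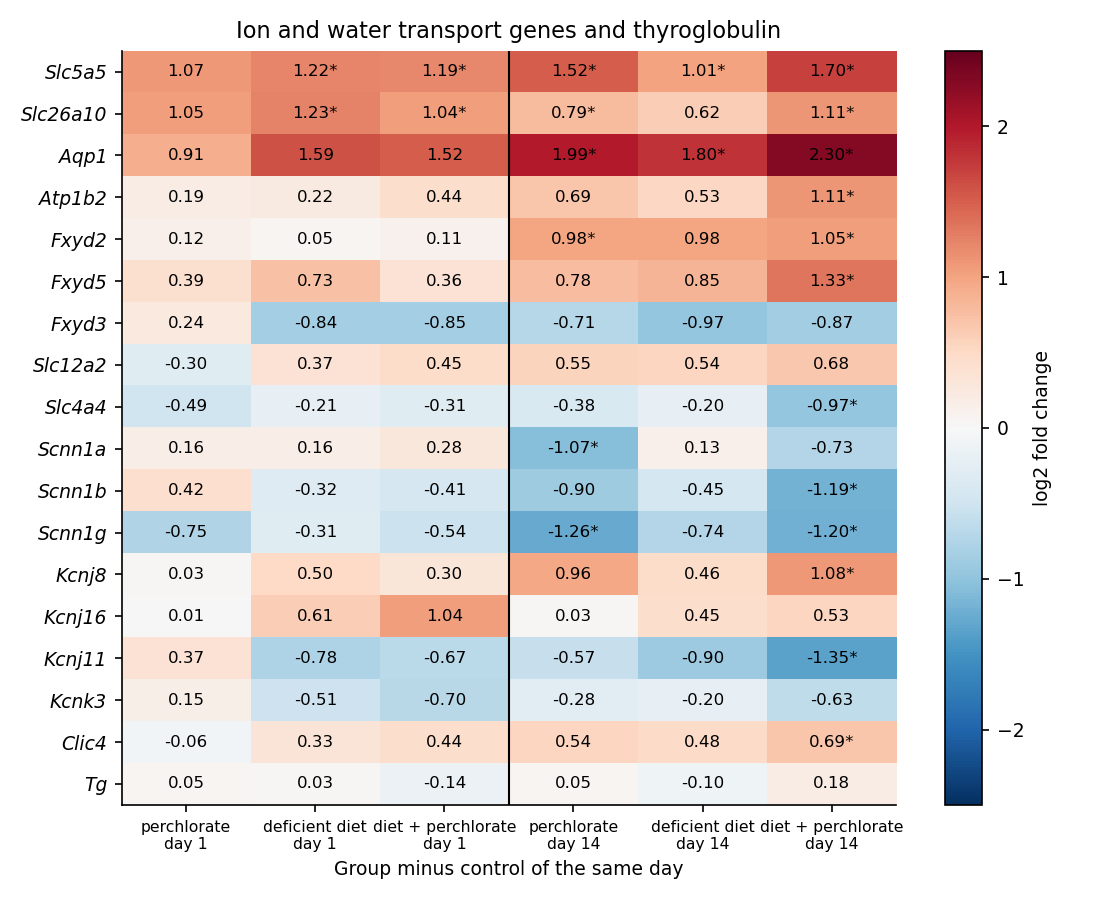
Log2 fold change from the control of the same day for Slc5a5, for the called transport genes named in the text other than Ano6 and Clcn4, and for Tg, in columns by treatment and day. Colour and number give the value, and an asterisk marks an adjusted p under 0.05, so Slc5a5 and Slc26a10 carry marks on both days and the sodium channel subunits on day 14 alone in this set.

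Genes known to act on the symporter were read from a further list. Of 22 tested from a list of 24 (the thyrotropin receptor and its signalling, thyroid transcription factors and proteins of symporter traffic), 0 rose and 1 fell in combined thyroids of day 14, where 8.85% of all probe sets were called: Foxe1, a thyroid transcription factor (-0.51, adjusted p = 0.0223), a call lost without combined replicate 27 or 30 or control replicate 44 or 47 (-0.54 to -0.43), with the values as deposited (adjusted p = 0.0564) and with median scaling (adjusted p = 0.0704). In the other 5 comparisons with control on a single day limma called 0 of them, with 1 to 4 at an unadjusted p under 0.05. Adcy9, an adenylyl cyclase, fell by 0.59 over both days in combined thyroids (adjusted p = 0.0355), a call lost under 10 of 21 alternatives. Tshr, the thyrotropin receptor, was at 9.19, 9.95 and 10.08 in combined thyroids of day 14, against 9.56, 9.79 and 9.86 in controls, and was not called in any comparison with control.

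Of 8 tested genes of hormone synthesis and release, Slc5a5 aside, 1 was called in combined thyroids over both days, where 10.1% of all probe sets were, a count near that share: Duoxa1, needed for the dual oxidase that makes hydrogen peroxide, fell by 0.70 (adjusted p = 0.0176). Tg gave -0.14 to 0.18 over the 6 comparisons on its brightest probe set, none called. Its second probe set, at percentile 99.9 of the mean level, fell by 0.35 over both days in combined thyroids (adjusted p = 0.0304), so the pair disagreed. The Duoxa1 call was lost without control replicate 43 of day 14 (-0.63, adjusted p = 0.0522) and with the values as deposited (-0.56, adjusted p = 0.0631).

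Markers of other cells moved with the treatments on day 14, and their part in the Slc5a5 result was not tested. The 7 follicular markers summed to 40673 to 45379 intensity units in perchlorate, 39820 to 43163 in diet and 38086 to 40931 in combined thyroids, against 41585 to 42219 in controls, and 1 of 7, Foxe1, was called. The 7 endothelial markers summed to 14085 to 20079 in perchlorate, 12284 to 16108 in diet and 18673 to 20307 in combined thyroids, against 7339 to 10655 in controls, with 3, 0 and 5 of 7 called higher. Limma called 3.57%, 0.22% and 8.85% of all probe sets in those 3 comparisons, in either direction. The follicular sums of perchlorate and diet thyroids overlapped those of controls, and the sums of combined thyroids lay below them.

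On day 1 the follicular sums were 44801 to 48138 in perchlorate, 42593 to 45468 in diet and 40665 to 47360 in combined thyroids, against 40237 to 44935 in controls, and the endothelial sums overlapped control in every treatment. Fibroblast markers (6 measured) were called higher for 3 genes in perchlorate and 4 in combined thyroids of day 14, smooth muscle and pericyte markers (7) for 4 and 5, and macrophage markers (5) for 2 and 4. Of all probe sets, 3.57% and 8.85% were called in those comparisons, in either direction. C cell markers (7) fell for 3 genes in combined thyroids of day 14, with sums of 17898 to 28983, against 33986 to 41299 in controls. Parathyroid markers (3) fell for 1 gene in perchlorate and 1 in combined thyroids of day 14. Chga is on this list and on the C cell list, so their counts may share a gene. No skeletal muscle, adipocyte or lymphocyte marker was called in a comparison with control on a single day. On day 14 the mean levels of the endothelial, fibroblast, smooth muscle and macrophage lists were higher in each treated group than in control. Aqp1, Kcnj8, Fxyd2, Fxyd5 and Slc5a5 were also higher there, and Fxyd3 was lower. On day 1 Slc5a5 was 1.07, 1.22 and 1.19 above control for perchlorate, diet and combined treatment. Aqp1 was 0.91, 1.59 and 1.52 above it. A link between the lists and these genes was not tested. No marker of any list was called on day 1. Limma called 0% of all probe sets in perchlorate, 0.0537% in diet and 0.601% in combined thyroids of that day. With so few calls in all, the absence of a marker call says little about the cells.

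**Figure D5:**
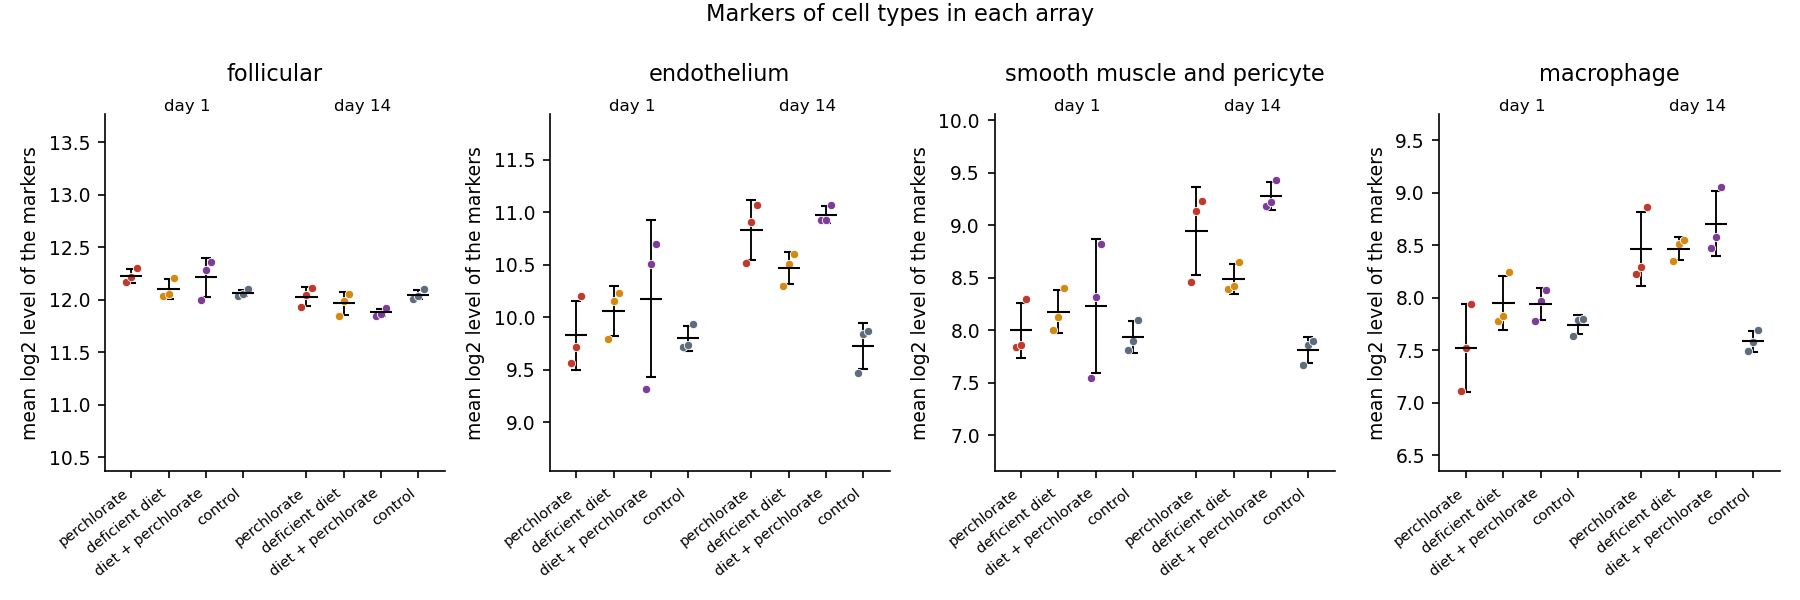
Mean log2 level of the follicular, endothelial, smooth muscle and pericyte, and macrophage markers in each array, by group, with means (bars) and SD (error bars, n = 3). Group means of the follicular markers lie between 11.88 and 12.23, while those of the other 3 lists are higher in each treated group of day 14 than in its control.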

How the data were processed

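Total RNA of 24 rat thyroid samples was labelled with biotin and hybridised to Affymetrix arrays by the manufacturer's standard protocol, per the labels' protocols. The deposited values are probe set intensities on a linear scale from GCOS, per the submitters' processing notes; its version, settings and scaling are not given in the sources used here, and detection calls were not used here. From these values, 57 control probe sets were left out, log2(intensity + 16) was quantile normalised, and probe sets under the 40th percentile of the mean were left out. limma 3.58.1 in R 4.3.3 fitted the 8 group means (eBayes with trend) and gave 21 contrasts and an F test, each adjusted by Benjamini-Hochberg over 18625 probe sets. The code was tested on simulated data. A single gene symbol was annotated for 20826 of 31042 probe sets, more than 1 for 436 and no symbol for 9780; genes were named from the single symbols alone. Array medians were 6.63 to 7.19 on the log2 scale and 2%-trimmed mean intensities 320 to 488; the number of arrays limits the precision.

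The members and lists were chosen with earlier results of these data known. Genes named are the 6 members, the genes called in a described comparison from the related lists (at most 6 a list, by smallest p), Tg and Tshr, and the 5 genes nearest to Slc5a5. Groups came from the labels. Alternatives were the values as deposited, median scaling, pseudocounts of 1 and 64, no filter, a fit of only the groups compared, array quality weights, robust variance, leaving out the pair of arrays that stood apart or each array in turn, and the other probe sets; the second Atp1b1 probe set without that pair was added after seeing the data.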

Additional observations from a re-analysis of the deposited data

How the results depend on the processing

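No paired analysis was possible because the groups share no replicate numbers. For Slc5a5, the rises in combined thyroids on both days, in perchlorate thyroids of day 14 and in the 3 means over both days kept their direction and call under every alternative tried. Leaving out 1 array gave 0.92 to 1.27 for perchlorate and 1.14 to 1.37 for diet on day 1, and 0.85 to 1.14 for diet on day 14, with calls gained or lost as given above. The diet value was no longer called with only the groups compared on day 1 (1.21) or with median scaling on day 14 (1.01), and combined against diet on day 14 became a call with array weights (0.68) and with only the groups compared (0.68). Small uncalled Slc5a5 differences changed sign. Combined against diet on day 1 was 0.024 with the values as deposited, 0.11 with array weights and -0.18 to 0.056 without 1 array. Without 1 array, combined against perchlorate on day 1 ran from -0.074 to 0.27 and perchlorate against diet from -0.30 to 0.050. Control day 14 against day 1 was -0.076 with array weights and -0.0080 to 0.29 without 1 array, and the change of the diet effect between days was 0.14 with array weights.

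Counts of called probe sets changed as follows. With array weights they were 12 (perchlorate), 96 (diet) and 678 (combined) on day 1, 1762, 915 and 4371 on day 14, 567, 1339 and 4385 for the means, and 4934 in the F test. Without the pair of arrays that stood apart they were 25 (diet) and 341 (combined) on day 1, 1426, 221 and 3295 on day 14, 406 (diet) and 3339 (combined) for the means, and 2680 in the F test. With only the groups compared they were 1, 2 and 17 on day 1, 1244, 515 and 3187 on day 14, and 64 (perchlorate) and 523 (diet) for the means. The values as deposited gave 190 for combined day 1 and 96 for the perchlorate mean, median scaling 62 for diet day 14, and no filter 6 and 21 for diet on days 1 and 14 and 138 and 121 for the perchlorate and diet means. Without 1 array the counts were 0 to 55, 1 to 6 and 60 to 142 on day 1, 225 to 551, 6 to 21 and 808 to 1356 on day 14, 71 to 495, 54 to 148 and 1113 to 1929 for the means, and 899 to 2443 in the F test.

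Atp1b1 became a call in combined thyroids with array weights on day 14 (0.23, adjusted p = 0.0246) and over both days (0.21, adjusted p = 0.00784), and likewise without the pair of arrays (0.25, 0.0308, and 0.17, 0.0487). Both settings also called more probe sets in all, as counted above. Some uncalled values of members and Tg changed sign around 0. With the values as deposited Ano1 was 0.088 for perchlorate on day 14 and 0.090 for the diet mean. Median scaling gave 0.055 for Atp1b1 with perchlorate on day 1, and for Tg -0.061 with diet on day 1, -0.061 with perchlorate on day 14 and -0.064 in the combined mean. Array weights gave 0.11 for Atp1b1 with perchlorate on day 1, 0.13, -0.12 and 0.0058 for Kcnq1 and -0.055, -0.031 and -0.043 for Ano1 in combined thyroids of day 1, of day 14 and in the mean, and 0.039 for Tg in the diet mean. Without the pair of arrays Atp1b1 was 0.040 with perchlorate on day 1, Kcnq1 was 0.15 in combined day 1 and 0.088 in the combined mean, and Ano1 was -0.089 in diet day 1, -0.12 in combined day 1 and -0.044 in the combined mean. The second Atp1b1 probe set gave 0.17 for perchlorate on day 1, and 0.073 without the pair.

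Leaving out 1 array, Kcnq1 ran from -0.21 to 0.65 (perchlorate) and -0.66 to 0.15 (combined) on day 1, -0.090 to 0.47 and -0.27 to 0.29 on day 14, and -0.0020 to 0.43 and -0.32 to 0.088 in the means. Ano1 ran from -0.093 to 0.33 (perchlorate), -0.089 to 0.26 (diet) and -0.12 to 0.20 (combined) on day 1, -0.092 to 0.14 (perchlorate) and -0.091 to 0.13 (combined) on day 14, and -0.052 to 0.16, -0.17 to 0.00065 and -0.044 to 0.12 in the 3 means. Atp1b1 ran from -0.12 to 0.12 with perchlorate on day 1. Tg ran from -0.063 to 0.13 (perchlorate) and -0.090 to 0.11 (diet) on day 1, and -0.0044 to 0.094, -0.094 to 0.0057 and -0.037 to 0.066 in the means. The cause of these changes was not tested. Slc26a4 and Kcne2 lay near the dim end of the array, and their values do not settle whether they changed.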
